A study of Homo sapiens with 32 samples.

Results

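Romidepsin and azacitidine were each given alone and together to 4 human T-cell tumour lines, and the quantity described here is the departure from additivity. It is the log2 difference that romidepsin made in the presence of azacitidine (combination minus azacitidine alone) minus the log2 difference it made without azacitidine (romidepsin minus untreated). A departure of 0 means that the fold changes of the 2 drugs multiplied. A positive departure means that a transcript was more abundant with both drugs than that product, and a negative one that it was less abundant. All 32 of the 32 libraries enter, 8 in each line: 3 combinations, 3 doses of azacitidine alone, romidepsin alone and untreated cells. The lines are PF382, from T-cell acute lymphoblastic leukemia, TLOm1, from adult T-cell leukemia, and, from cutaneous T-cell lymphoma, both HH and H9. PF382 and TLOm1 received 125, 250 and 500 nM azacitidine, and HH and H9 received 50, 125 and 250 nM. With and without azacitidine, the romidepsin concentration was 1.25 nM for PF382 and 1 nM for both TLOm1 and H9. In HH it was at 1.25 nM in the combinations and at 1 nM alone, so in that line the extra romidepsin and the departure cannot be told apart. Exposure lasted 96 h, with romidepsin given at the start and azacitidine every 24 h.

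Romidepsin inhibits histone deacetylases, the enzymes that remove acetyl groups from histone tails, and raises histone acetylation at promoters and enhancers. Azacitidine, a cytidine analogue, enters RNA and, once reduced to its deoxy form, also DNA, where it traps DNA methyltransferases, so that methylation at CG dinucleotides is lost as cells divide. Both drugs are used in T-cell lymphoma, and both can raise transcription of silenced genes.

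RNA was sequenced from stranded libraries, for which the labels name both poly(A) selection and removal of ribosomal RNA, and the deposited raw counts per gene symbol summed to between 16175077 and 32496676 per library. At this depth 3 counts, the limit a count of 0 allows, came to between 0.0923 and 0.185 CPM, the unit of level used here, in which counts are scaled to a common library size. These limits cover counting error only. Each condition of a line is 1 library, and nothing in the labels says that the libraries came from separate cultures. The p-values therefore measure only the spread of the romidepsin effect between doses and lines that a fit leaves over. In the fits per line this spread is between the 3 doses, so a departure that changes with dose counts as error. Within a line the 3 departures share the same romidepsin and untreated libraries. The T-cell markers CD3E and CD247 stood at 39.9 to 602 CPM and 65.9 to 325 CPM in the untreated lines. CD3D fell to 0.731 CPM in an untreated line, and CD3G, CD2, CD5, CD7, CD28, TRAT1 and LCK each fell lower still. LCK had 0 counts in 7 libraries. The summed level of 10 T-cell markers was 243 to 2090 CPM in combination libraries, 382 to 2290 CPM with azacitidine, 385 to 1950 CPM with romidepsin and 439 to 2010 CPM in untreated cells. Markers of fibroblasts, 5 genes led by COL1A1, summed to 2 to 59.4 CPM in combination libraries and 0.284 to 7.64 CPM in untreated cells, and 6 myeloid markers to 0.41 to 11.8 CPM and 0.153 to 4.85 CPM in the same order. Other lists reached higher sums. In combination libraries and untreated cells, B-cell markers summed to 8.71 to 419 CPM and 1.91 to 406 CPM. Cytotoxic and natural killer markers summed to 10.5 to 402 CPM and 3.17 to 207 CPM. Epithelial markers summed to 3.31 to 225 CPM and 4.73 to 118 CPM. The part of all these markers in the departures was not tested. In bulk RNA, fewer cells of a kind and less RNA per cell cannot be told apart.

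Departures were widest at the highest azacitidine dose of every line, and the excess lay on the side of higher transcript levels. Over the 14354 symbols with at least 10 counts in 16 libraries, the log2 difference made by romidepsin had an SD across symbols of 0.418, 0.562, 0.626 and 0.734 at 0, 125, 250 and 500 nM azacitidine in PF382. In TLOm1 the SD was 0.446, 0.455, 0.552 and 0.748 at the same doses. Over 0, 50, 125 and 250 nM it was 0.448, 0.565, 0.569 and 0.71 in HH and 0.321, 0.338, 0.358 and 0.459 in H9. The H9 values were the lowest of the 4 lines at every dose position. At 500 nM, 8.2% of symbols departed upward by at least 2-fold in PF382 and 1.64% downward, and in TLOm1 the shares were 9.07% and 3.45%. At 250 nM the upward and downward shares were 6.44% and 2.83% in HH and 2.82% and 1.66% in H9. At the lowest doses the sides were nearer each other, with 2.72% upward and 3.27% downward in HH at 50 nM. These shares include the counting error of 4 libraries each. Across the same symbols, which are not independent replicates, the romidepsin difference with azacitidine and that without it, which share no library, correlated with Pearson's r between 0.334 in TLOm1 at 500 nM and 0.592 in PF382 at 125 nM. On the first principal component of each line, which held 47.7% to 59.1% of the variance, the untreated library lay at one end and the combination at the highest dose at the other in all 4 lines.

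**Figure D1:**
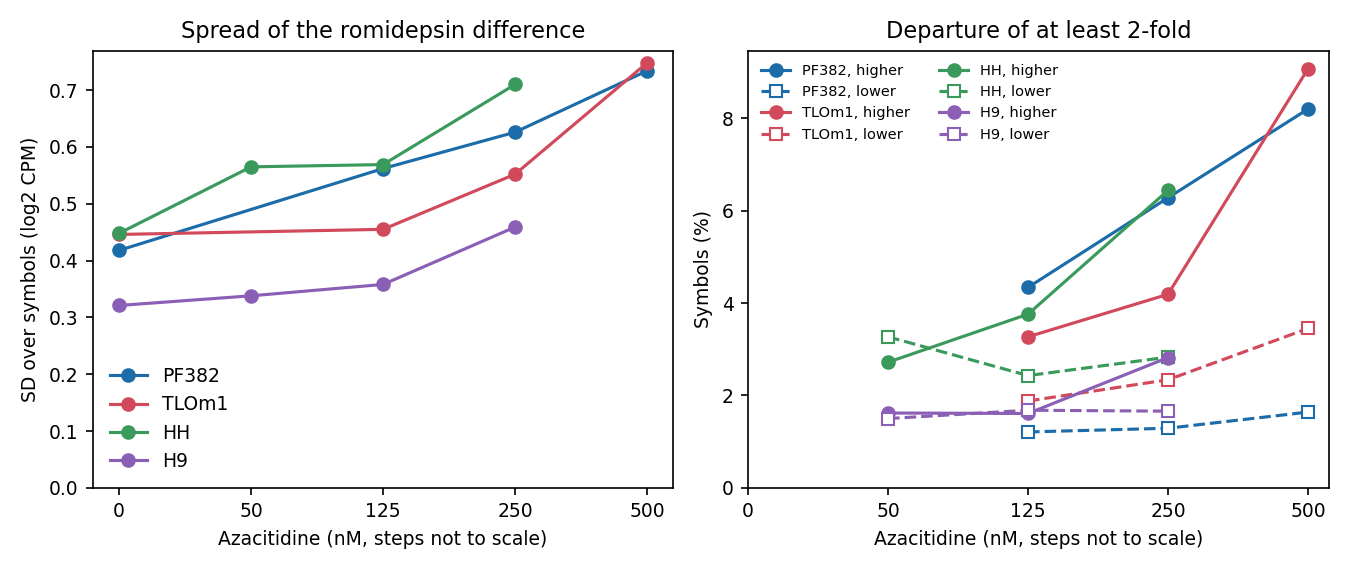
Spread of the romidepsin effect and size of departures by azacitidine dose in each cell line. On the left the SD across 14354 symbols of the log2 difference made by romidepsin, and on the right the percentage of symbols departing by at least 2-fold (filled, higher; open, lower), are plotted against azacitidine dose in nM with steps not to scale; in PF382 the SD is 0.418 without azacitidine and 0.734 at 500 nM.

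Averaged over lines and doses, 1 transcript departed from additivity past an adjusted p of 0.05 in edgeR's quasi-likelihood test, PTRF, which encodes the caveolar coat protein cavin-1. That is 0.00562% of the 17801 symbols tested. PTRF in PF382 had 134, 171 and 182 CPM with both drugs at 125, 250 and 500 nM azacitidine, 16, 19.4 and 19.1 CPM with azacitidine alone, 41.3 CPM with romidepsin alone and 15.2 CPM untreated. All 3 combination libraries of PF382 thus lay above its other 5 libraries. In TLOm1 it reached 3.74 CPM with both drugs at 500 nM, against 0.0888 CPM with azacitidine alone, and elsewhere it was near or at 0 counts. The fitted departure was 1.71 ± 0.22 (SE, 12 combination libraries in 4 lines, adjusted p = 0.00879), and in PF382 alone 1.72 ± 0.20 (adjusted p = 0.00198). Without PF382, without the middle dose or without a term for cell line, 0 symbols were called over lines. PTRF was not among the calls of limma-voom. No symbol was called lower over lines by edgeR, DESeq2 called 1 and limma-voom 2, and 1783 symbols in either direction had an unadjusted p under 0.05 in edgeR. Of those with a negative departure the smallest p belonged to FASN, the fatty acid synthase, at -0.34 (adjusted p = 0.132). OXCT1, a ketone body enzyme, RAG1, DIS3L, an exonuclease, and TUBA3D, an alpha tubulin, came next at -0.30, -0.76, -0.35 and -1.26, with adjusted p between 0.257 and 0.27.

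Nearly all calls fell at the higher azacitidine doses. At 50 nM, in HH and H9, 2 symbols were called, both lower than additive (0.0112% of 17801), and at 125 nM, in all 4 lines, only PTRF was (0.00562%). At 250 nM, in all 4 lines, 105 symbols were called higher (0.59%) and 14 lower than additive (0.0786%), or 0.669% in all. At 500 nM, in PF382 and TLOm1, 792 were called higher and 906 lower (9.54%). The median SE of a departure over the 14354 symbols was 0.16 at 50 nM, 0.12 at 125 nM, 0.12 at 250 nM and 0.16 at 500 nM. The doses also differ in the lines that received them, and the reason for the difference in calls was not tested. In simulated data the tests at 500 nM and per doubling made false calls somewhat more often than the threshold allows. This limit holds for the calls at 500 nM and the slopes. The calls at 250 nM come from the same fit by dose and were not checked in this way. Of the symbols called at 500 nM, 381 departed upward by at least 2-fold and 65 downward. The counts lean on single lines: without TLOm1, whose departures were larger, 172 symbols were called at 500 nM, 100 higher and 72 lower, and without PF382 1350 were, 608 higher and 742 lower. Counts of list members without TLOm1 or PF382, given below, come from the same fits and are to be read beside these totals. At 250 nM the count was 58 to 76 when any 1 line was left out, and 0 in a model with a single term per treatment for all lines. The 2 symbols at 50 nM, CDC42EP1 and LRP3, rested on few counts in HH and were not called without HH or without TLOm1, nor among symbols with at least 10 counts in 16 libraries.

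**Figure D2:**
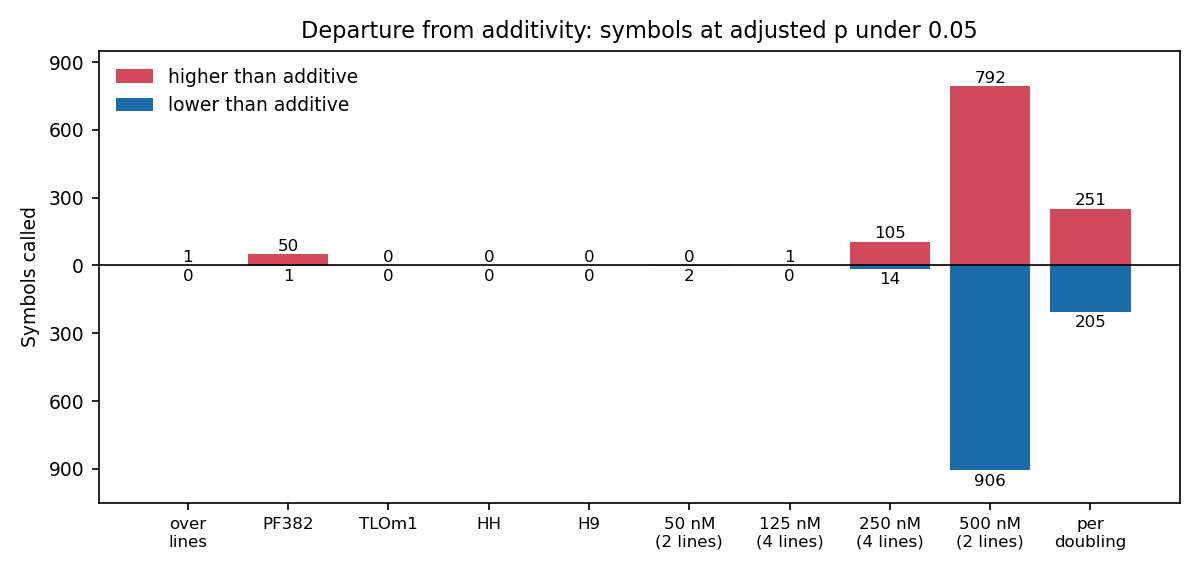
Symbols called as departing from additivity, by comparison. Bars give the number of the 17801 tested symbols with an adjusted p under 0.05 (edgeR), higher and lower than additive, over lines, in each line, at each azacitidine dose and per doubling of dose; 792 higher and 906 lower at 500 nM are the longest bars.

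Symbols called at 500 nM were mostly ones whose combination library was the extreme of the 4 conditions, not ones at which one drug cancelled the other. Of the 792 called higher, the combination had the highest CPM of the 4 conditions in both PF382 and TLOm1 for 603 (76.1%), which holds for 20.1% of all symbols tested. Of the 906 called lower, the combination had the lowest CPM in both lines for 657 (72.5%), against 15.6% of all symbols. For the 105 called higher at 250 nM the combination was highest in all 4 lines for 52 (49.5%), against 4.7% of all symbols. These shares describe the same values that gave the calls and are no further test.

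Among symbols called higher at 250 nM with at least 40 counts in each kind of library, TJP3 departed most. It encodes a scaffold protein of tight junctions. At 250 nM TJP3 had 1.85, 8.08, 4.74 and 24.1 CPM with both drugs in PF382, TLOm1, HH and H9, against 0, 1.70, 0.463 and 4.56 CPM with azacitidine alone. With romidepsin alone the lines had 0.387, 1.00, 0.193 and 53.7 CPM, and untreated 0.0816, 0.939, 0.349 and 40.1 CPM. In H9 azacitidine went with a lower level and the combination with a smaller loss, whereas in the other 3 lines the combination was the highest of these conditions. Its fitted departure was 2.22 ± 0.33 (SE, 4 lines, adjusted p = 0.00419, edgeR). CREB3L3, a membrane-bound transcription factor known from liver lipid metabolism, had 14.8, 21.0, 20.9 and 29.7 CPM with both drugs at 250 nM in the same order of lines and 7.06, 2.31, 2.82 and 4.02 CPM with azacitidine alone. It had 8.68, 1.81, 2.02 and 3.62 CPM with romidepsin alone and 13.1, 1.75, 1.31 and 1.82 CPM untreated. The combination was thus highest in every line, and the departure was 2.09 ± 0.28 (adjusted p = 0.0032). SLC17A7, a vesicular glutamate transporter, C3, the complement component, PHOSPHO1, a phosphatase of bone mineralization, and XIRP1, an actin-binding protein of muscle, departed by 2, 1.90, 1.85 and 1.72. Not every line informed these values: the departures of C3 in PF382 and of XIRP1 in H9 could not be estimated (SE 19606.64 and 19996.76).

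Downward departures at 250 nM were fewer. CMAHP, a pseudogene of the sialic acid hydroxylase, had 9.45, 25.3, 38.1 and 33.2 CPM with both drugs in PF382, TLOm1, HH and H9, against 16.2, 48.9, 166 and 46.1 CPM with azacitidine alone. With romidepsin alone it had 25.6, 41.6, 91.2 and 72.6 CPM, and untreated 27.8, 60.8, 138 and 65.0 CPM. The combination was lowest in all 4 lines, and the departure was -0.83 ± 0.14 (adjusted p = 0.0154, edgeR). BHLHE22, a neural basic helix-loop-helix factor, was abundant only in HH, at 23.3 CPM with both drugs, 94.6 CPM with azacitidine, 36.2 CPM with romidepsin and 43.8 CPM untreated. Its departure was -1.48 ± 0.22 (adjusted p = 0.0047). PXDNL, also an HH transcript, TUBA3D, whose near-identical copies make its counting uncertain, CD1E, a lipid antigen-presenting protein, and RAG1 departed by -1.76, -1.53, -1.11 and -0.82. Without PF382 the RAG1 value at 250 nM changed sign, to 0.23.

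At 500 nM the largest upward departures that appeared in both lines included RCN3, PMEL, CREB3L3, TLE2 and FGFR4. PMEL, which forms the fibrils of pigment organelles, had 33.5 CPM in PF382 and 10 CPM in TLOm1 with both drugs, 2.85 and 0.666 CPM with azacitidine, 2.58 and 1.62 CPM with romidepsin, and 1.14 and 0.598 CPM untreated. Its departure was 2.5 ± 0.31 (SE, 2 lines, adjusted p = 0.000111, edgeR). CREB3L3 had 25.1 CPM in PF382 and 48.6 CPM in TLOm1 with both drugs, against 9.48 and 3.24 CPM with azacitidine alone, and departed by 2.69 ± 0.33 (adjusted p = 0.000111). Every other library of those lines lay below its own 500 nM combination for both genes. TLE2, a transcriptional corepressor, had 24.8 and 26.1 CPM with both drugs in PF382 and TLOm1, 0.499 and 1.82 CPM with azacitidine, 12 and 9.77 CPM with romidepsin, and 0.735 and 5.08 CPM untreated (departure 2.48 ± 0.38, adjusted p = 0.000492). RCN3, a calcium-binding protein of the endoplasmic reticulum, departed by 2.94 and FGFR4, a fibroblast growth factor receptor, by 2.28. Other transcripts in this group belonged to 1 line: XIRP1 (3.16) and RGS1 (2.23), a regulator of G-protein signalling, were near 0 counts in PF382, and CD9 (2.72), a tetraspanin, was low in TLOm1. Without TLOm1 the XIRP1 value was -3, from libraries with almost no counts. ARHGEF10L, GPR162 and the uncharacterized LOC338817 departed by 2.61, 2.47 and 2.93. Over 3 doses ARHGEF10L was at -3.5 ± 3.45 in PF382 and 1.68 ± 0.65 in TLOm1, so its value leaned on TLOm1. SNORD3A (3.90), a copy of the U3 small nucleolar RNA, belongs to a multicopy family, so its counting is uncertain.

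**Figure D3:**
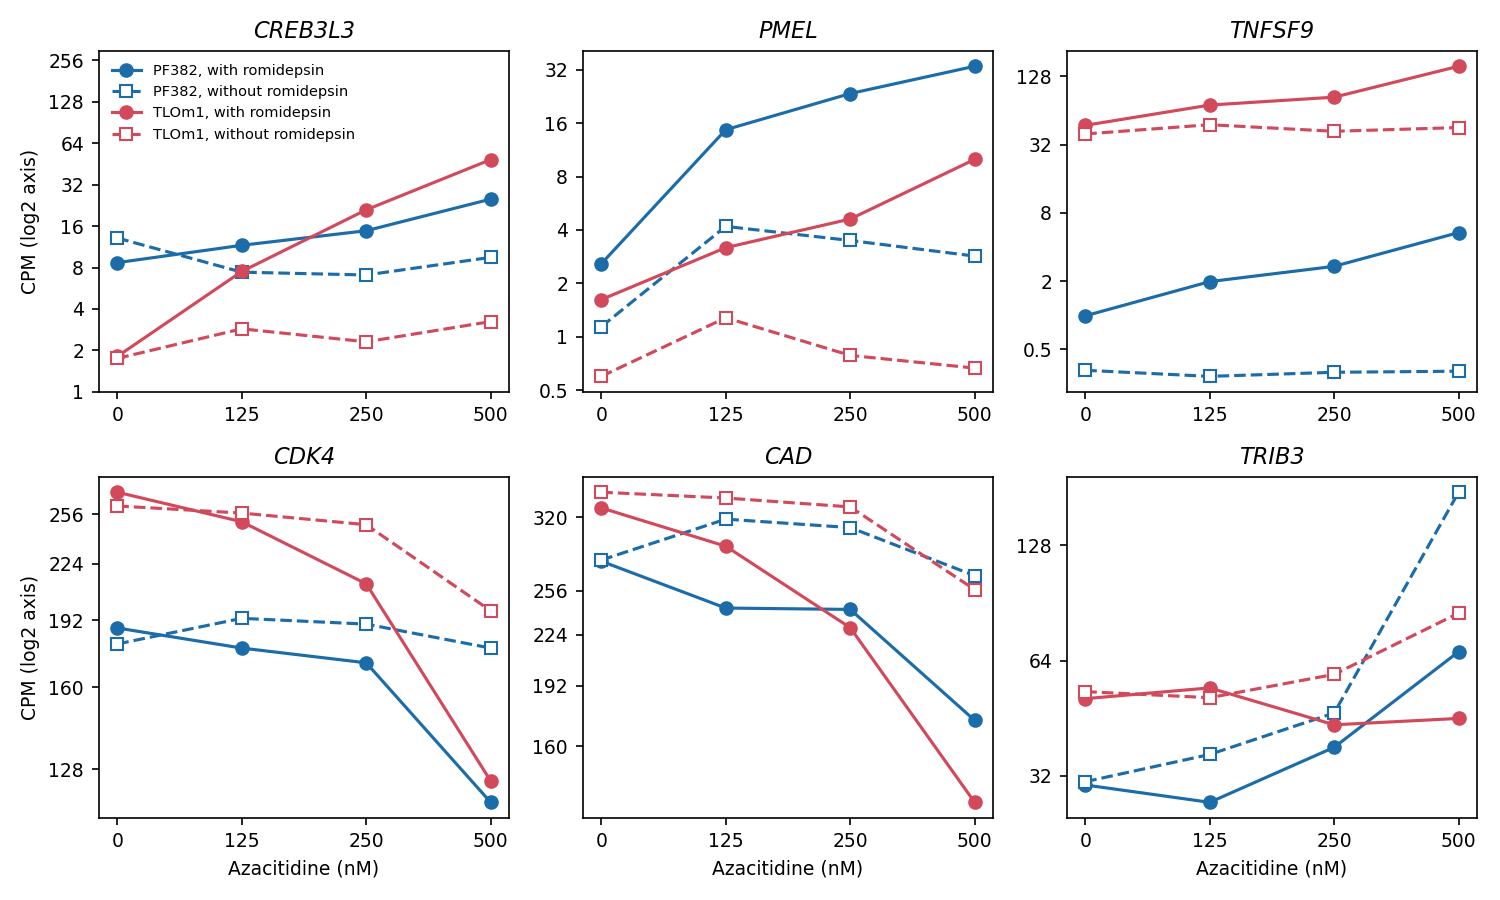
Levels of 6 genes in PF382 and TLOm1 with and without romidepsin at 0, 125, 250 and 500 nM azacitidine. Each point is 1 library in normalised CPM; at 500 nM CREB3L3, PMEL and TNFSF9 lie above the level without romidepsin in both lines, and CDK4, CAD and TRIB3 below it.

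A few checkpoint and costimulatory genes were called higher than additive at 500 nM. Of 32 tested of 37 listed, 20 were positive and 12 negative and 4 were called higher, with a list median of 0.16 against 0.00 for all symbols and a background of 4.45% called higher. None was called lower in edgeR, with 1 at an unadjusted p under 0.05. TNFSF9, the ligand of the T-cell costimulatory receptor 4-1BB, had in PF382 1.98, 2.70 and 5.36 CPM with both drugs at 125, 250 and 500 nM, 0.289, 0.314 and 0.321 CPM with azacitidine, 0.988 CPM with romidepsin and 0.327 CPM untreated. In TLOm1 it had 71.4, 83.8 and 157 CPM with both drugs, 47.9, 41.9 and 45.2 CPM with azacitidine, 47.3 CPM with romidepsin and 39.7 CPM untreated. At 250 nM HH had 70.6 CPM with both drugs and 35.0 CPM with azacitidine, and H9 had 35.5 and 23.7 CPM in the same order. Azacitidine alone left TNFSF9 within a narrow range in PF382, TLOm1 and HH, and in all 4 lines the departure grew with the dose. It was 0.78 ± 0.11 at 250 nM (4 lines, adjusted p = 0.0032), 1.59 ± 0.16 at 500 nM (2 lines, adjusted p = 1.3e-05) and 0.41 ± 0.06 per doubling of dose (adjusted p = 0.00168, edgeR). PVRL2, now NECTIN2, a ligand of the checkpoint receptors TIGIT and PVRIG, departed by 1.68, C10orf54, which encodes the checkpoint protein VISTA, by 0.96, and the costimulatory receptor CD28 by 0.76. Without TLOm1 1 member of the list was called, and without PF382 2 were.

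The 250 bases upstream of TNFSF9 are shown because CG dinucleotides are where DNA methyltransferases act, and romidepsin raised this gene more with azacitidine than without. In RefSeq's GRCh38.p14 they are chr19:6530776-6531025 on the plus strand, with CG in capitals.
TNFSF9: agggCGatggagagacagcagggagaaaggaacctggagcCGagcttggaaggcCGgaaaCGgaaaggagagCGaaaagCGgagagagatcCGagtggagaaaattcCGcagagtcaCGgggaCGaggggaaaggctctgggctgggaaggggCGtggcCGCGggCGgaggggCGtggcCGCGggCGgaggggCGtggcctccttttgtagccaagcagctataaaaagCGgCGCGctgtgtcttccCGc
The window held 23 CG, and 74.2% of the 34788 upstream windows of the same length in that table held fewer, with a median of 11. Methylation was not measured, and the count of CG is a description of the sequence.

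Transcripts called lower than additive at 500 nM included several that azacitidine alone had raised and that the combination held nearer the untreated level. TRIB3, a pseudokinase induced by amino acid and endoplasmic reticulum stress, had 67.5 CPM in PF382 with both drugs, 176 CPM with azacitidine, 30.3 CPM with romidepsin and 30.9 CPM untreated. In TLOm1 it had 45.2 CPM with both drugs, 85.1 CPM with azacitidine, 50.9 CPM with romidepsin and 53.1 CPM untreated. In both lines the azacitidine library was the highest of the 4 conditions, and the departure was -1.02 ± 0.13 (SE, 2 lines, adjusted p = 0.000135, edgeR). CARD9, an adaptor of innate immune receptors, had 53.8 CPM in TLOm1 with both drugs, 217 CPM with azacitidine, 54.2 CPM with romidepsin and 72.3 CPM untreated (departure -1.46 ± 0.19, adjusted p = 0.000132). CTSG, a serine protease of myeloid granules, was counted almost only in PF382, at 10.5 CPM with both drugs, 33.1 CPM with azacitidine, 11.3 CPM with romidepsin and 5.96 CPM untreated (departure -2.55). TUBA3D had 14.9 CPM in PF382 and 3.99 CPM in TLOm1 with both drugs, and 26.6 and 13.3 CPM with azacitidine (departure -1.68). INHBE, an inhibin subunit, and SLC16A6, a transporter of the monocarboxylate family, departed by -1.51 and -1.46. STC2, a secreted glycoprotein, DDR2, a collagen receptor, PRKCDBP and C3orf15 departed by -1.45, -1.47, -1.52 and -1.85, and their values rested on TLOm1: without it they were 0.39, 0.09, 2.78 and 1.82, none of them called. DNAH8, an axonemal dynein, LOC339822 and C12orf39 departed by -1.71, -1.53 and -1.64, and these too leaned on 1 line. Over 3 doses DNAH8 was at 0.32 ± 2.47 in PF382 and -0.90 ± 0.57 in TLOm1. LOC339822 was at 0 with an SE of 0 in TLOm1 and at -0.90 ± 0.43 in PF382. C12orf39 could not be estimated in PF382 (SE 30334.61) and was at -0.96 ± 0.44 in TLOm1.

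TRIB3 belongs to the genes of the amino acid and endoplasmic reticulum stress response driven by ATF4. Of 35 tested at 500 nM, 9 were called lower (background 5.09%) and 1 higher, with a median of -0.15. SLC7A1, the cationic amino acid transporter, had 234 CPM in PF382 and 326 CPM in TLOm1 with both drugs, 319 and 617 CPM with azacitidine, 261 and 503 CPM with romidepsin, and 250 and 507 CPM untreated (departure -0.63 ± 0.10, adjusted p = 0.00117, edgeR). SHMT2, the mitochondrial serine hydroxymethyltransferase, departed by -0.54, SLC7A5 and SLC3A2, which form a leucine transporter, by -0.57 and -0.51, and the transcription factor ATF4 by -0.39. The member called higher was EIF2AK3, the kinase PERK (0.48). The list median was -0.48 in TLOm1 and -0.02 in PF382, and 1 member was called lower without TLOm1, against 12 without PF382.

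Genes of the cell cycle and DNA replication had the most members called of any list at 500 nM, and all those called were lower than additive. Of 52 tested of 52 listed, 21 were called lower, against 5.09% of all symbols, with a list median of -0.29. None was called higher in edgeR, also at an unadjusted p under 0.05 (0 symbols). CDK4, the kinase of the G1 phase, had 117 CPM in PF382 with both drugs, 178 CPM with azacitidine, 188 CPM with romidepsin and 180 CPM untreated. In TLOm1 it had 124 CPM with both drugs, 197 CPM with azacitidine, 272 CPM with romidepsin and 262 CPM untreated. The combination was the lowest of the 4 conditions in both lines, with departures of -0.67 in PF382 and -0.71 in TLOm1 and a fitted value of -0.63 ± 0.09 (adjusted p = 0.00041, edgeR). TYMS, thymidylate synthase, had 410 CPM in PF382 and 137 CPM in TLOm1 with both drugs, 567 and 292 CPM with azacitidine, 610 and 369 CPM with romidepsin, and 670 and 356 CPM untreated. Its departure was -0.33 in PF382 and -1.14 in TLOm1 (fitted -0.75 ± 0.12, adjusted p = 0.00127). RRM2, a subunit of ribonucleotide reductase, departed by -0.56, CDC25A, a phosphatase that activates cyclin-dependent kinases, by -0.62, E2F8 by -0.76, CCNE2, cyclin E2, by -0.71 and FOXM1 by -0.56. The list median was -0.48 in TLOm1, where 48 of 52 members were negative, and -0.16 in PF382, where 34 were. Without TLOm1 1 member was called lower, among 72 of all symbols, and without PF382 21 were, among 742. At 250 nM, where edgeR called no member, 13 had an unadjusted p under 0.05, all negative, against 12.5% of all symbols in either direction. The list median there was -0.14 in HH and -0.15 in H9.

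Of 31 genes of MYC and ribosome biogenesis tested at 500 nM, 14 were called lower than additive (5.09% of all symbols) and 1 higher (4.45%), with a median of -0.32. CAD, which starts pyrimidine synthesis, had 173 CPM in PF382 and 135 CPM in TLOm1 with both drugs, 268 and 257 CPM with azacitidine, 280 and 329 CPM with romidepsin, and 281 and 345 CPM untreated (departure -0.68 ± 0.11, adjusted p = 0.00101, edgeR). PES1, a ribosome assembly factor, had 64.3 CPM in PF382 and 113 CPM in TLOm1 with both drugs, 108 and 146 CPM with azacitidine, 122 and 180 CPM with romidepsin, and 119 and 179 CPM untreated (departure -0.53). For both genes the combination was the lowest of the 4 conditions in each line. DKC1, the pseudouridine synthase of small nucleolar ribonucleoproteins, departed by -0.48, NOP16 by -0.68 and MYC by -0.44. The member called higher was MXD4, a MAX partner that represses MYC targets (0.48). Here the larger median was that of PF382, at -0.52, against -0.19 in TLOm1. In HH at 50 and 125 nM the median was positive, 0.17 and 0.20. Without PF382 4 members were called lower, and without TLOm1 2 were.

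Among the named members of the cell cycle and MYC lists, the upstream window of CDK4 held the E-box CACGTG, a sequence that MYC and its partner MAX can bind, 3 times. It is shown in GRCh38.p14 of RefSeq, chr12:57752311-57752560 on the minus strand, with CACGTG in capitals.
CDK4: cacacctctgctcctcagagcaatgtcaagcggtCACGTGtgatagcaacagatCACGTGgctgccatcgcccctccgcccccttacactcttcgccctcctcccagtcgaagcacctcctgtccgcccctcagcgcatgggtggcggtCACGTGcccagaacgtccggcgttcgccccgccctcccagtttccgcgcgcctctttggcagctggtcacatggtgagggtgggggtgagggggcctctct
The motif reads the same on both strands and its 3 copies do not overlap. It occurred in 6.31% of the 34788 windows of 250 bases, and in none of the windows of RRM2, TYMS, CDC25A, CAD, PES1, DKC1 and NOP16. This says only which letters stand in these windows.

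Of 8 inhibitors of cyclin-dependent kinases, 2 were called higher (4.45% of all symbols) and 1 lower (5.09%) at 500 nM. CDKN1C (p57) was called higher at 1.66 and CDKN1A (p21) at 0.94, and CDKN2A (p16) lower at -1.08. CDKN1A had 20.9 CPM in PF382 and 421 CPM in TLOm1 with both drugs, 7.69 and 164 CPM with azacitidine, 5.54 and 172 CPM with romidepsin, and 2.08 and 169 CPM untreated. In PF382 romidepsin went with a like fold in either setting (departure 0.05), and the departure of 1.33 in TLOm1 carried the call (fitted 0.94 ± 0.23, adjusted p = 0.021, edgeR).

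Nucleotide metabolism and azacitidine uptake genes had 6 called lower (5.09% of all symbols) and 2 higher (4.45%) of 23 tested at 500 nM, with a median of -0.25. The 6 included UCK2 (-0.48), the kinase that first phosphorylates azacitidine, CTPS (-0.46), which makes CTP, and RRM1 and RRM2, which are also in the cell cycle list. SAMHD1, which breaks down deoxynucleotides, was higher than additive (0.89 ± 0.18, adjusted p = 0.00449, edgeR). It had 62.7 CPM in TLOm1 with both drugs, 35.6 CPM with azacitidine, 35.6 CPM with romidepsin and 38.9 CPM untreated, and stayed under 2 CPM in PF382.

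**Figure D4:**
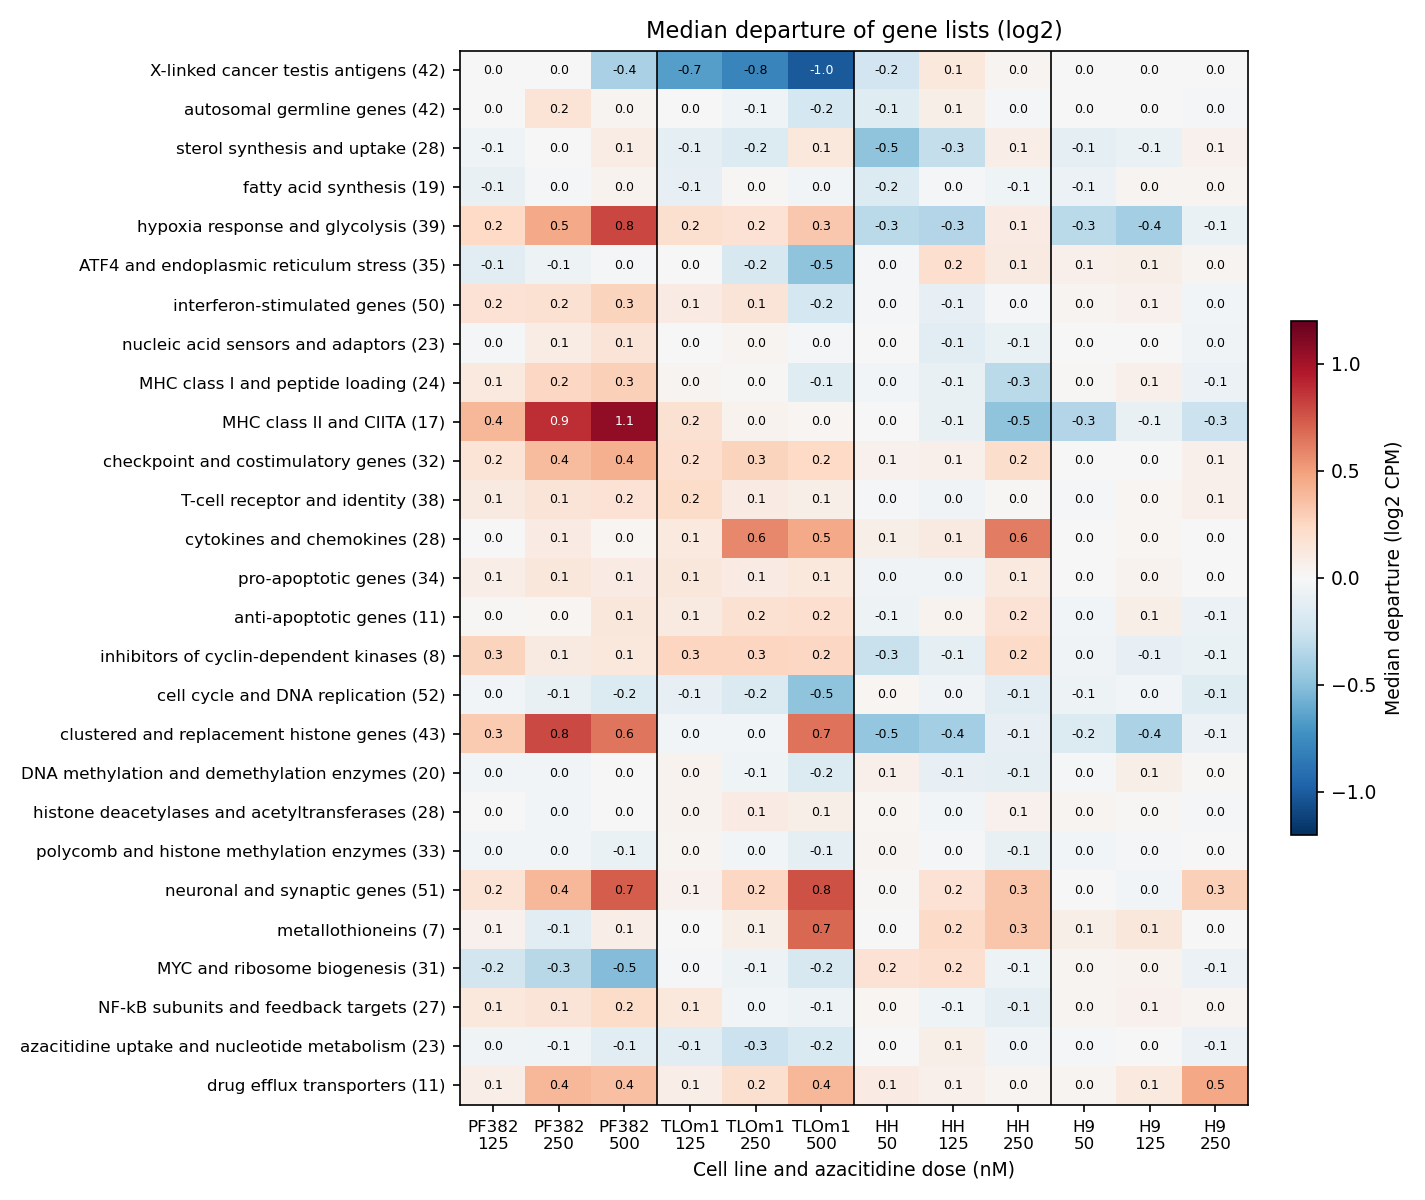
Median departure of gene lists in each line and at each azacitidine dose (nM). Each cell gives the median log2 CPM departure over the tested members (their number in brackets), on a scale where blue is below and red above 0; at 500 nM the cell cycle list has -0.48 in TLOm1 and the hypoxia list 0.80 in PF382.

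Most hypoxia response and glycolysis genes had a positive departure at 500 nM. Of 39 tested, 34 were positive and 6 were called higher (4.45% of all symbols), with a median of 0.35 against 0.00 for all symbols. No member was called lower in edgeR, with 1 at an unadjusted p under 0.05. HK1, a hexokinase, had 118 CPM in PF382 and 175 CPM in TLOm1 with both drugs, 77.8 and 137 CPM with azacitidine, 125 and 161 CPM with romidepsin, and 146 and 174 CPM untreated (departure 0.51 ± 0.12, adjusted p = 0.0128). EPAS1, the transcription factor HIF-2 alpha, had 23.2 and 15.1 CPM with both drugs in PF382 and TLOm1, 2.42 and 3.24 CPM with azacitidine, 4.17 and 1.81 CPM with romidepsin, and 1.96 and 1.28 CPM untreated (departure 1.53 ± 0.37, adjusted p = 0.018). PFKFB3, a regulator of glycolysis, departed by 1.57, and CA9, a carbonic anhydrase, by 4.27 from levels of at most 1.47 CPM in those lines. The list median was 0.80 in PF382 and 0.32 in TLOm1 at 500 nM. At the lowest dose it was 0.24 in PF382 and 0.19 in TLOm1, and it was -0.32 in both HH and H9. Without either PF382 or TLOm1, 1 member was called higher.

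Neuronal and synaptic genes and histone genes had the highest medians of the 28 lists at 500 nM, although few members were called. Of 51 neuronal and synaptic genes tested of 56 listed, 4 were called higher (4.45% of all symbols) and 1 lower (5.09%), with a median of 0.49, and within lines the median was 0.73 in PF382 and 0.76 in TLOm1. MAPT, the microtubule-associated protein tau, had 27.6 CPM in PF382 and 19.3 CPM in TLOm1 with both drugs, 7.23 and 7.64 CPM with azacitidine, 10.1 and 4.95 CPM with romidepsin, and 6.65 and 3.88 CPM untreated (departure 1.16 ± 0.20, adjusted p = 0.00128, edgeR). It was also called at 250 nM (0.86 ± 0.16, adjusted p = 0.0154). SYT11, a synaptotagmin, and SYP, synaptophysin, departed by 0.46 and 1.17, and VAMP2, a vesicle fusion protein, by -0.38. Of 43 clustered and replacement histone genes tested of 48 listed, 4 were called higher (4.45% of all symbols), among them the linker histone HIST1H1C (1.04), and 2 lower (5.09%), the variant histones H2AFY (-0.33) and H2AFZ (-0.29), with a median of 0.61. In HH at 50 nM the histone median was -0.46. Transcripts of most clustered histone genes lack a poly(A) tail and their copies are alike, so their counts depend on the library method and are uncertain.

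Of 50 interferon-stimulated genes tested at 500 nM, 6 were called higher (4.45% of all symbols) and 1 lower (5.09%), with a median of -0.08. ISG15 (0.68), a ubiquitin-like protein, OASL (1.67) and BST2, or tetherin (0.63), were higher than additive and IFI16 (-0.45), a DNA sensor, lower. Without PF382 2 members were called higher, without TLOm1 1 was and without H9 3 were. Of 38 T-cell receptor and identity genes, 5 were called higher, among them RUNX3 (0.55), CD8A (0.92) and CD7 (1.17), and 2 lower, CD2 (-0.76) and CD3E (-0.51), against 4.45% and 5.09% of all symbols, so that the lower count is at the background. Without TLOm1 2 members were called higher, without PF382 1 was and without H9 3 were. Of 34 pro-apoptotic genes, 1 was called higher and 1 lower at 500 nM, both below the shares of all symbols. The lower one was CASP2, a caspase (-0.38 ± 0.11, adjusted p = 0.0337, edgeR). BMF, a BH3-only protein that binds BCL2 proteins, was called higher at both 250 nM (1.21 ± 0.19, adjusted p = 0.0114) and 500 nM (0.88 ± 0.23, adjusted p = 0.0284). At 250 nM BMF had 16.5, 92.2, 54 and 40.9 CPM with both drugs in PF382, TLOm1, HH and H9, against 10.8, 55.0, 15 and 20.4 CPM with azacitidine alone. With romidepsin alone it had 6.36, 35.1, 28.8 and 17.8 CPM, and untreated 9.35, 36.2, 25.5 and 22.1 CPM, so the combination was highest in every line.

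Cancer testis antigens, which both drugs can switch on from silence, gave no upward call at 500 nM. Of 82 X-linked members listed 42 had enough counts to be tested, 0 were called higher and 2 lower, PASD1 (-2.43) and PAGE2B (-2.95), and at an unadjusted p under 0.05 edgeR gave 0 higher and 4 lower. The 2 called lower are about the 5.09% of all symbols. Over 3 doses PASD1 could not be estimated in PF382 or TLOm1 (SE 8346.74 and 24651.48), the lines given 500 nM. In HH, which did not receive 500 nM, PASD1 was at -0.60 ± 0.44. PAGE2B was at -2.24 ± 1.78 in PF382 and -1.94 ± 2.91 in TLOm1. Of 42 autosomal germline genes tested none was called in either direction, with 0 higher and 3 lower at an unadjusted p under 0.05. Several of these antigens are in multicopy families whose counting is uncertain.

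Of the drugs' targets, HDAC3 was called at 500 nM, and DNMT1, HDAC1 and HDAC2 were not. DNMT1, the maintenance methyltransferase, departed by -0.10 at 500 nM (adjusted p = 0.457), HDAC1 by 0.22 (adjusted p = 0.128) and HDAC2 by -0.09 (adjusted p = 0.673). HDAC3 departed by 0.45 ± 0.14 (adjusted p = 0.0418, edgeR), with 0.05 in PF382 and 0.93 in TLOm1, and a difference between these genes was not tested. In TLOm1 HDAC3 had 178 CPM with both drugs, 86.2 CPM with azacitidine, 131 CPM with romidepsin and 121 CPM untreated. DNMT3B, a de novo methyltransferase, was called higher at 1.07 ± 0.19 (adjusted p = 0.00224). It had 212 CPM in PF382 and 10.3 CPM in TLOm1 with both drugs, 84.3 and 3.11 CPM with azacitidine, 72.1 and 3.67 CPM with romidepsin, and 57.3 and 2.82 CPM untreated. The combination was the highest of the 4 conditions in both lines. UHRF1, the partner of DNMT1 at replicating DNA, was called lower (-0.35), and HDAC5 (0.75) and HDAC11 (1.06) higher. ABCB1, the efflux pump that exports romidepsin, departed by -0.23 (adjusted p = 0.908) and stood at low CPM.

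Taken line by line over its 3 doses, PF382 had 50 symbols called higher and 1 lower than additive (0.287% of those tested). TLOm1, HH and H9 had 0 by edgeR, with 1922, 834 and 273 symbols at an unadjusted p under 0.05 and smallest adjusted p of 0.0868, 0.172 and 1, and limma-voom called 1, 0 and 0 in them. The test of a difference in departure between the lines called 0 symbols, with 836 at an unadjusted p under 0.05, so the departures of PF382 are not shown to differ from those of the other lines. The error in these fits is the spread between the 3 doses of a line, so 0 calls do not show that departures were absent. The PF382 count was 0 without the middle dose, 134 without the lowest and 362 without the highest.

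The symbols called in PF382 included class I antigen-presenting genes. Of 24 genes of MHC class I and peptide loading tested, 4 were called higher (background 0.281%), with a median of 0.20 against 0.00, and none lower in edgeR, with 0 at an unadjusted p under 0.05. At 500 nM, over PF382 and TLOm1, the same list had 0 called higher, with 2 at an unadjusted p under 0.05, and 2 called lower, PSMB10, an immunoproteasome subunit (-0.62), and TAPBP, or tapasin (-0.48). Per doubling of dose it again had 0 called higher, with 1 at an unadjusted p under 0.05, and 2 lower, PSMB10 (-0.19) and TAPBP (-0.15). HLA-B had 313, 396 and 474 CPM with both drugs at 125, 250 and 500 nM in PF382, 76.9, 87.4 and 95.5 CPM with azacitidine, 113 CPM with romidepsin and 53.1 CPM untreated. HLA-E had 251, 290 and 346 CPM with both drugs, 109, 115 and 134 CPM with azacitidine, 151 CPM with romidepsin and 125 CPM untreated. For both genes the 3 combination libraries lay above the other 5. Their departures were 1.09 ± 0.14 and 1.03 ± 0.13 (SE, adjusted p = 0.00198 each, edgeR), and that of HLA-C was 0.75. Reads of these near-identical genes may be split between them by the counting. In TLOm1, HH and H9 the departure of HLA-B at each dose lay between -0.32 and 0.24. COTL1, an actin-binding protein, had 107, 134 and 110 CPM with both drugs in PF382, 23.2, 27.9 and 25.7 CPM with azacitidine, 52.4 CPM with romidepsin and 33.3 CPM untreated (departure 1.53 ± 0.17, adjusted p = 0.00108). COTL1, HLA-E, ST3GAL1, a sialyltransferase, and HLA-B had the smallest p for a difference between lines, each at an adjusted p of 0.101.

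**Figure D5:**
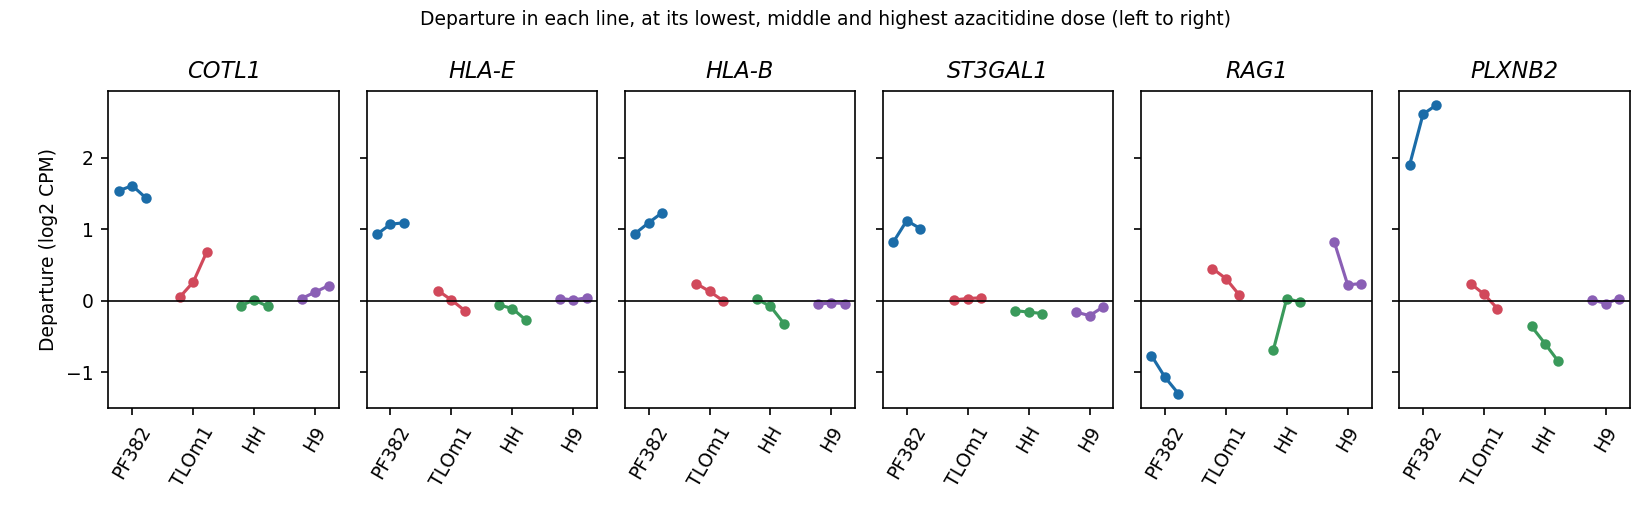
Departures of 6 genes in each line and at each azacitidine dose. Each point is the log2 CPM departure from 4 libraries (prior count of 2), at the lowest, middle and highest dose from left to right; COTL1, HLA-E, HLA-B, ST3GAL1 and PLXNB2 lie above 0 at all doses in PF382, and RAG1 lies below 0 there.

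Also called in PF382 was RAG1, the recombinase of antigen receptor genes in immature lymphocytes, the single symbol lower than additive. It had 583, 407 and 277 CPM with both drugs at 125, 250 and 500 nM, 888, 765 and 607 CPM with azacitidine, 1330 CPM with romidepsin and 1190 CPM untreated. Azacitidine libraries lay below the untreated one at every dose and combination libraries below those, with a departure of -1.05 ± 0.16 (SE, 3 doses, adjusted p = 0.00807, edgeR). The other lines had at most 2.97 CPM, and without PF382 the value over lines was 0.23. PLXNB2, a semaphorin receptor, had 4.76, 10.8 and 21.5 CPM with both drugs in PF382, 0.722, 1.02 and 1.92 CPM with azacitidine, 1.63 CPM with romidepsin and 0.98 CPM untreated (departure 2.57 ± 0.46, adjusted p = 0.0228). ENGASE, an endoglycosidase, AHNAK, a large scaffold protein, and JAG2, a Notch ligand, departed by 2.44, 2.30 and 2.29. In PF382 HDAC5 (1.14), the death receptor TNFRSF10B (1.01) and TRAF1 (1.42), a signalling adaptor of the tumour necrosis factor receptors, were also called higher.

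Change in the departure per doubling of the azacitidine dose was called for 251 symbols upward (1.41%) and 205 downward (1.15%), or 2.56% of 17801. The steepest upward slopes belonged to AHNAK2, HCAR2 and SHROOM2, at 2.12, 1.91 and 1.78 per doubling, and few counts lay behind them in most libraries. AHNAK2 in TLOm1 had 0.403, 3.27 and 20.9 CPM with both drugs at 125, 250 and 500 nM, 0.617, 0.654 and 1.02 CPM with azacitidine, 0.524 CPM with romidepsin and 0.299 CPM untreated. SLC35D2, CYP2C18 and CTSG had the steepest downward slopes, at -1.31, -1.11 and -0.95. Of 28 sterol synthesis and uptake genes, 8 had an upward slope (background 1.41%), with a median of 0.16 against 0.01 for all symbols. None had a downward one in edgeR, with 0 at an unadjusted p under 0.05. The slope started below additivity: the list's median departure was -0.27 at 50 nM, where 24 of 28 members were negative. It was -0.13 at 125 nM, -0.02 at 250 nM and 0.15 at 500 nM. Only HH and H9 received 50 nM. At the lowest dose of each line the list median was -0.48 in HH, -0.12 in H9, -0.05 in PF382 and -0.11 in TLOm1. HH combinations held more romidepsin than romidepsin alone, so in HH the extra drug and the departure cannot be told apart. MVD, mevalonate diphosphate decarboxylase, showed the pattern in HH: it had 82.6, 76.1 and 86.0 CPM with both drugs at 50, 125 and 250 nM, 167, 120 and 104 CPM with azacitidine, 192 CPM with romidepsin and 248 CPM untreated. Its departure there was -0.65, -0.29 and 0.10, and the slope over lines was 0.24 ± 0.04 (adjusted p = 0.0042). SQLE, squalene epoxidase, MSMO1 and CYP51A1, which demethylate sterol intermediates, had slopes of 0.17, 0.29 and 0.24. The slopes rested on the top doses: without each line's highest dose 1 symbol was called. Leaving out PF382, TLOm1, HH or H9 gave 70, 49, 157 and 1513 calls.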

How the data were processed

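The 32 libraries hold poly(A)-selected RNA according to one part of the labels and RNA depleted of ribosomal RNA according to another. The authors deposited a table of raw counts for every library, and each table lists 25559 gene symbols. STAR, DESeq2, limma and GRCh37.p2 are named in the submitters' processing notes, without versions, and neither counter nor annotation nor use of strand is given in the sources used here, so overlapping and antisense genes cannot be told apart. Totals were 16175077 to 32496676 counts per library.

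Symbols were kept with edgeR's filterByExpr (minimum count 10, minimum total 15), which left 17801. Counts were scaled by TMM (factors 0.9324 to 1.153) and fitted with robust quasi-likelihood models in edgeR 4.0.16 under R 4.3.3, with Benjamini-Hochberg adjustment over all tested symbols and a threshold of 0.05. Each line had its own untreated level, romidepsin effect and 3 azacitidine effects. The departure was added as 1 term over lines (11 residual degrees of freedom), 1 per line (8), 1 per dose (8), or 1 per line plus a slope per doubling of dose (7). Only PF382 and TLOm1 received 500 nM, and they are the 2 lines given beside a 500 nM value. In the fit by dose, each other dose term is common to all lines that received it and helps set their romidepsin effects. HH and H9 therefore enter the 500 nM values as well as the spread. A fitted value can thus lie outside the departures of PF382 and TLOm1. CPM use the TMM-scaled library sizes, and departures of single libraries are on log2 CPM with a prior count of 2. Tests of DESeq2 1.42.0 and limma 3.58.1 (voom), other filters and scaling, and fits without a line or a dose were alternatives. On simulated data the mean estimates for well-counted symbols lay near the sizes put in. The share of false calls was somewhat above the threshold at 500 nM and per doubling, and the other doses were not tested there.

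Libraries of the same line deviated together, among the 6 treatments and doses given to all lines. All 60 of 60 same-line pairs correlated above 0.1 (0.89 to 0.981), so cell line is part of every model. The 2 closest libraries, PF382 with 125 and 250 nM azacitidine, differed by a chi-square of 5.09 per symbol, above sampling noise, and no library was merged.

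The gene lists and the comparison were chosen with earlier results of these data known. Named over lines were all called symbols with at least 40 counts in each kind of library, up to 12 per direction, or the 5 with the smallest p where none was called. In a line they were the 4 largest called departures per direction with at least 20 counts in each kind, for the difference between lines the 4 smallest p, for dose the 3 steepest slopes per direction, and always DNMT1, HDAC1, HDAC2, HDAC3, CDKN1A and ABCB1. List members were to be named only if called over lines, which none was. The names at single doses (up to 12 per direction at 500 nM and 6 at 250 nM) and the list members at 500 nM, in PF382 and per doubling were chosen after their values were seen. Promoter sequences are from RefSeq (GRCh38.p14), where 12607 of the 17801 symbols (70.8%) had an entry. A few list members are not reported here.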

Additional observations from a re-analysis of the deposited data

Results flagged for a closer look

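Among 46 groups of 4 lines, covering 22 symbols, 4 held a line far from the other 3. Chance gives about 1 in 20 groups. The departure of FASN at 125 nM was -0.14 in H9, against -0.47 to -0.43 in the other lines, and at 250 nM it was -0.68 in TLOm1, against -0.26 to -0.19. DNMT1 at 250 nM departed by -0.18 in HH, against -0.04 to -0.02. ABCB1 at 250 nM departed by 1.84 in HH, against 0.55 to 0.74, from low counts, and HH is the line whose romidepsin dose differed between the combinations and the drug alone.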

How the results depend on the processing

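Over lines, where PTRF alone was called, 4 symbols were called with no filter on low counts, 0 with 10 counts in 16 libraries, 13 with DESeq2, 2 with limma-voom and 0 with single terms per treatment in all lines. Cell line is the replicate block here, and with no replicate block 0 were called. PF382 had 98 calls with no filter and 16 with limma-voom. TLOm1 had 1 with either, and HH 1 with no filter. At both 50 and 125 nM 0 were called with 10 counts in 16 libraries or limma-voom, and with single terms per treatment 0 at 125 nM and 0 at 250 nM. Leaving out 1 line or 1 dose gave 0 to 10 calls over lines, 0 to 362 in PF382, 0 to 79 in TLOm1, 0 to 87 in HH, 0 to 4 in H9, and 0 to 8 for the difference between lines (8 without TLOm1). Leaving out 1 line gave 0 to 10 at 50 nM (10 without H9), 1 to 2 at 125 nM, 58 to 76 at 250 nM and 172 to 1729 at 500 nM. For the slopes the range was 1 to 1513. Leaving out each line in turn, RAG1 ran from -0.92 (without TLOm1) to 0.23 (without PF382) over lines and from -0.95 to 0.23 at 250 nM. At 500 nM XIRP1 ran from -3 (without TLOm1) to 3.27 (without HH). There C3orf15 ran from -1.95 to 1.82, PRKCDBP from -1.54 to 2.78, DDR2 from -1.57 to 0.09 and STC2 from -1.85 to 0.39, with the low end without PF382 and the high end without TLOm1. The cause of these changes was not tested, beyond the fewer libraries that remained. Of 471 values of named genes under the alternatives, 363 kept direction and, where tested, side of the threshold. Another 98 lost the call, 3 gained one and 7 changed sign. The 363 include 50 values on the linear CPM scale, where only the sign was compared. A grouping of doses by order, chosen after seeing the data, gave 0, 3 and 1124 calls at the lowest, middle and highest dose. With 1 library per condition, depth limits symbols under a few CPM, and the fitted sign held on the CPM scale for 50 of 50 named values.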
